A study of Mus musculus with 4 samples.

Results

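A set of 10 genes of nucleic acid sensing, Ddx58, Ifih1, Dhx58, Tlr3, Zbp1, Eif2ak2, Mavs, Tmem173, Adar and Trex1, were compared between lymphoid-primed multipotent progenitors (LMPP) with and without signal from an IRF8 reporter. The members were every probe, controls aside, whose RefSeq accession belongs to one of these 10 gene symbols. This gave 14 of 55681 probes, and 10 of the 20280 gene symbols on the array. The set is broader than cytosolic sensors in the strict sense: Tlr3 works in endosomes, Mavs and Tmem173 are adaptors, and Adar and Trex1 limit the amount of nucleic acid that the sensors meet.

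LMPP are early bone marrow cells that can still give lymphoid and myeloid progeny. All cells came from IRF8-GFP knockin mice, so both groups carry the reporter allele, and the strain, age and number of animals are not given in the sources used here. Both sorts, by magnetic columns and then flow cytometry, kept CD117+, Sca-1+, CD34+ and CD135+ cells without lineage markers, IL-7R or CD150, and they differed in GFP, which was absent in the IRF8-GFP negative and present in the IRF8-GFP positive group. Each group has 2 one-colour arrays, numbered exp 1 and exp 2. Whether a group's 2 arrays stand for different animals is not stated, so the p-values reflect array-to-array spread that may be technical.

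Levels are log2 of the scanner's processed signal minus the array's 75th percentile, and a difference is positive minus negative. Spots well above background, out of 59305, numbered 33506 and 33681 in the negative group against 29631 and 30266 in the positive, and the 75th percentile was a signal of 438 and 543 against 318 and 414. Irf8 was 11.7-fold higher in the positive group (limma adjusted p = 0.000802). Of the gate's genes, Kit, Ly6a, Cd34, Flt3 and Il7r were measured on all 4 arrays, and Slamf1, which encodes the excluded CD150, was above background on none. Ptprc, which encodes CD45 and was listed with them, is not among the markers named above. It was measured on all 4 arrays and did not pass (log2 difference -0.08). Il7r was 5.26-fold higher in the positive group (limma adjusted p = 0.000835). Ly6a was 1.94-fold lower (limma adjusted p = 0.00222) and Kit 1.31-fold lower (limma adjusted p = 0.00769). Cd34 was 1.20-fold higher (limma adjusted p = 0.0249) and Flt3 1.19-fold higher (limma adjusted p = 0.0257), each with its sign kept under 4 of the 8 scalings tried. The median difference over the 22362 genes and unnamed transcripts tested was 0.16, so a small difference is best read against that value.

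Cells recognise viral or misplaced nucleic acid through a few receptor families. RIG-I (encoded by Ddx58) and MDA5 (Ifih1) bind double-stranded RNA in the cytosol and signal through the mitochondrial adaptor MAVS, while LGP2 (Dhx58) is a relative without signalling domains that tunes them. STING (Tmem173, Sting1 in the reference) relays the signal of cGAS, a DNA sensor. Both routes lead to type I interferon, which in turn raises transcription of many of the sensors. Unstimulated stem and progenitor cells are also known to hold part of the interferon-stimulated programme.

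Genes induced by interferon commonly carry an interferon-stimulated response element (ISRE) near their start. RefSeq promoter windows of GRCm38.p6 ran from 250 bases before to 50 after a transcription start. Those of 7 of the 10 genes were searched on both strands for GAAANNGAAA, the ISRE core. The composite element of Ets and IRF factors was searched as GGAANNGAAA, and the STAT element GAS as TTCNNNGAA. A match to the ISRE letters was present in Ddx58, Ifih1 and Eif2ak2, against 3.44% of all 32851 windows. In each of the 3 it lay in the first transcribed bases. These are shown because 2 of the 3 genes fell, with the matched letters in capitals and each sequence on the strand of its gene.

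Ddx58, chr4:40239804-40239833, minus strand, bases 3 to 12 after the start: cctgaggcagTTTCGATTTCctatggccag

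Ifih1, chr2:62646206-62646233, minus strand, bases 33 to 42: gaagagaatcGAAACAGAAAccgatctg

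Eif2ak2, chr17:78882535-78882564, minus strand, bases 19 to 28: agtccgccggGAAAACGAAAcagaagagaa

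Adar, the last of its 3 windows, chr3:89730735-89730764, plus strand, bases 28 to 37, composite element: gccttttcaaGGAAACGAAAgtgaactctg

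The Ddx58 match reads on the opposite strand of the gene, and the Ifih1 and Eif2ak2 matches on the gene's own strand. The composite element was found in 2.72% of all windows and, among these genes, in the Adar window shown, where a GAS match (bases 23 to 31) overlaps it. GAS letters were present in 8.30% of all windows, and here also in Eif2ak2, at positions -178 to -170 from the start. No window of Mavs, Trex1 or Tlr3 held any of the 3 motifs. Dhx58, Zbp1 and Tmem173 were not searched, so nothing can be said on motifs in their promoters. A match of letters is a description and says nothing on binding in these cells.

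The genes moved in opposite directions. Ddx58, Ifih1, Dhx58 and Zbp1, which encode receptors or a regulator of receptors, were lower in IRF8-GFP positive LMPP, by 3.41-fold for Ddx58 and 1.38-fold to 1.46-fold for the others. The adaptor genes Mavs and Tmem173 and the DNA exonuclease gene Trex1 were higher by 1.40-fold to 1.48-fold. Tmem173 and Trex1 passed under only 5 of the 8 scalings tried, and Mavs under 7. Of all tested genes 79.2% had a lower difference than Mavs, 80.9% than Trex1 and 84.5% than Tmem173. Of the 10 genes, 9 passed the filter on dim probes, 4 were called lower and 4 higher (1 of them Adar, whose sign depends on the scaling). Over all tested genes 21.4% were called lower and 38.5% higher at a limma adjusted p of 0.05. Either way this was 8 of 9, against 59.9% of all tested genes. The arrays of the groups did not overlap for any of the 9, as for 82.2% of all tested genes, with 5 of the 9 lower (29.8% of all) and 4 higher (52.4% of all). The median difference of the 9 was -0.18, against 0.16 over all genes, and it stayed below 0 under all 8 scalings tried (lowest -0.48).

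**Figure D1:**
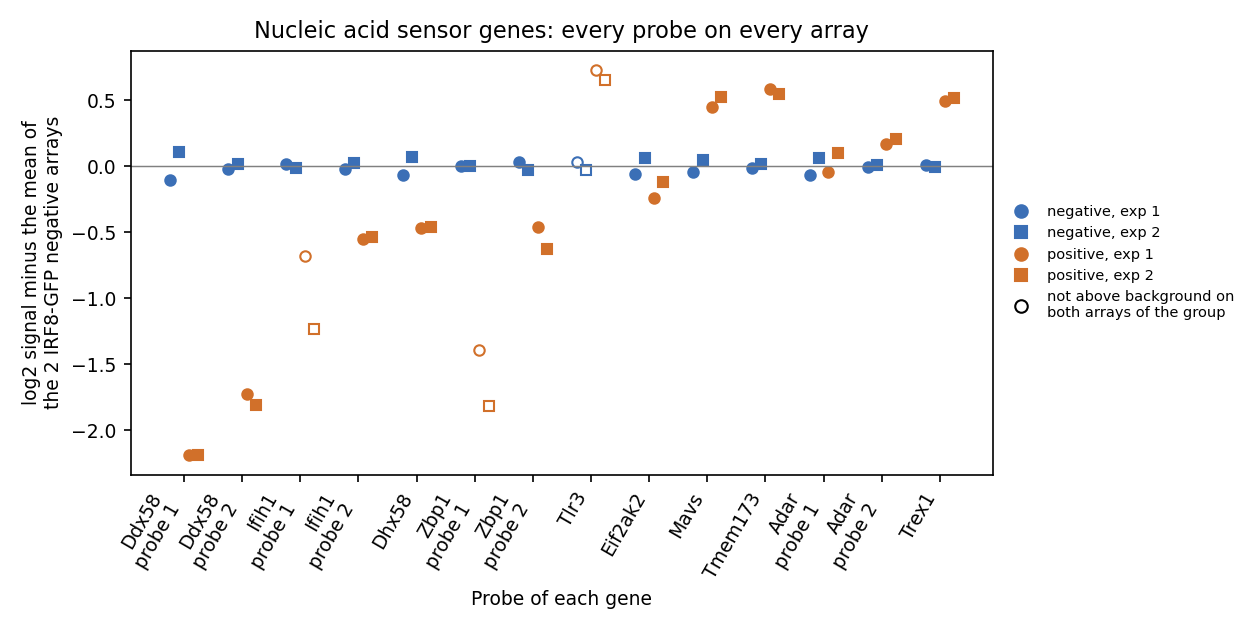
Log2 signal of each of the 14 probes on each of the 4 arrays, minus the mean of the 2 IRF8-GFP negative arrays of that probe (blue, negative; orange, positive; circles, exp 1; squares, exp 2; open symbols, probes not well above background on both arrays of the group). Both probes of Ddx58, Ifih1 and Zbp1 and the probe of Dhx58 lie below 0 on both positive arrays, and those of Mavs, Tmem173 and Trex1 above it.

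Ddx58 changed most. This RNA helicase recognises short double-stranded RNA with a 5′ triphosphate. Its brighter probe had levels of 3.17 and 3.21 in the negative group against 1.46 and 1.38 in the positive group. The gap between groups was far wider than that between the arrays of a group. The difference was -1.77 (SE 0.06, 95% interval -1.94 to -1.60, limma adjusted p = 0.00115). A second, dimmer probe, above background on all 4 arrays, read -1.45 and -1.25 against -3.54 and -3.54, a difference of -2.19 (SE 0.09, limma adjusted p over all probes 0.00167). Of the tested genes 1.41% had a lower difference than the brighter probe. The call was kept under every alternative tried, and over the scalings the difference ran from -2.07 to -1.71.

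Ifih1 encodes the helicase that recognises long double-stranded RNA. Its levels were 1.58 and 1.62 in the negative and 1.05 and 1.06 in the positive group. The 2 arrays of each group nearly coincided, and the groups differed by -0.55 (SE 0.06, limma adjusted p = 0.00332). A second, dim probe was above background on both negative arrays and on neither positive array, so that it gives only a bound, at least 1.27-fold lower, from measured means 1.94-fold apart. It entered the test only through the group where it is high, so it is given as a description. The 95% interval of Ifih1, -0.70 to -0.39, did not overlap that of Ddx58, although the difference between these 2 genes was not tested. The call for Ifih1 also held under every alternative.

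Dhx58 encodes LGP2, the remaining helicase of the family. It had levels of 1.36 and 1.50 in the negative group and 0.96 and 0.97 in the positive group. The positive arrays nearly coincided and the negative arrays lay further apart, without overlap. The difference was -0.47 (SE 0.07, limma adjusted p = 0.00831). Leaving out any 1 of the 4 arrays kept the call, with adjusted p of up to 0.0496. All 3 genes of the RIG-I-like receptor family were lower in the positive group, Ddx58 with the largest difference.

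Zbp1 encodes a sensor of Z-form nucleic acid that can start necroptosis. The brighter of its probes had levels of 0.42 and 0.36 against -0.07 and -0.24, a difference of -0.55 (SE 0.08, limma adjusted p = 0.00803). The other probe, which represents another RefSeq transcript of the gene, read -1.95 and -1.95 against -3.34 and -3.77, with only 1 of the 2 positive arrays above background. Since it passed the filter only through the negative group, its values are a description. Without negative replicate 1 the brighter probe's call was lost (-0.52, adjusted p = 0.0561).

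Eif2ak2 encodes PKR, a kinase that binds double-stranded RNA and halts translation by phosphorylating eIF2 alpha. Its levels were 1.56 and 1.68 in the negative and 1.38 and 1.50 in the positive group. The groups did not overlap, but the spread within each was wide (SD 0.09 in both, n = 2) and the difference of -0.18 (SE 0.08, 95% interval -0.40 to 0.04) did not pass (limma adjusted p = 0.120). It was below 0 under all 8 scalings and passed under 6 of them, with a value of -0.48 (adjusted p = 0.0083) after spike-in scaling. Eif2ak2 therefore shared the sign of the receptor genes, and its call depended on the scaling.

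Tlr3, the endosomal receptor for double-stranded RNA, was not well above background on any of the 4 arrays, with processed signals of 4.16 and 4.94 in the negative and 4.89 and 6.05 in the positive group. It was not tested, and no difference can be given.

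**Figure D2:**
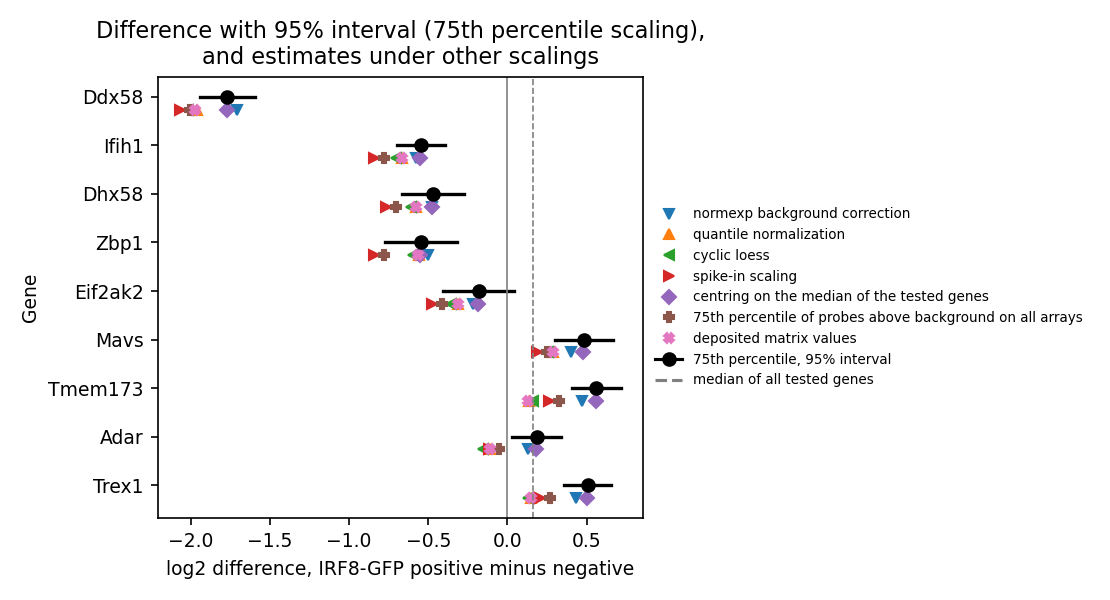
Log2 difference, IRF8-GFP positive minus negative, of the 9 tested genes: black points with 95% intervals from limma after scaling on the 75th percentile, coloured symbols for the 7 other scalings, dashed line for the median of all genes (0.16). Ddx58, Ifih1, Dhx58, Zbp1 and Eif2ak2 stay below 0 throughout, Mavs, Tmem173 and Trex1 stay above 0, and Adar lies on both sides.

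The adaptors went the other way. Mavs, through which RIG-I and MDA5 signal, had levels of 1.84 and 1.93 in the negative and 2.33 and 2.41 in the positive group. The difference was 0.48 (SE 0.07, 95% interval 0.30 to 0.67, limma adjusted p = 0.0066). Before scaling, its processed signals were close, at 1570 and 2070 against 1602 and 2196, so the size of the difference rests on the lower 75th percentile of the positive arrays. The value ran from 0.19 to 0.48 over the scalings, and the call was lost with spike-in scaling alone (adjusted p = 0.0648).

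Tmem173, which encodes STING, had levels of 5.16 and 5.18 against 5.75 and 5.71. The groups were well apart, with a difference of 0.56 (SE 0.06, 95% interval 0.41 to 0.72, limma adjusted p = 0.0032). Cyclic loess, which removes any trend with brightness, quantile normalization and the deposited matrix values brought it to between 0.13 and 0.16, where it missed the threshold (highest adjusted p 0.108). The sign held under all 8 scalings and the size did not.

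Trex1 encodes the main cytosolic exonuclease for DNA, which keeps self DNA from reaching cGAS. Its levels of 4.29 and 4.28 against 4.78 and 4.80 gave a difference of 0.51 (SE 0.05, limma adjusted p = 0.00364). Before scaling, its processed signals were close, at 8564 and 10552.5 against 8733 and 11563, so the same limit holds. As for Tmem173, the value fell to between 0.13 and 0.15 under the same 3 settings, where it missed the threshold (highest adjusted p 0.103).

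Adar encodes the enzyme that edits adenosine in double-stranded RNA, which keeps MDA5 from recognising self RNA. The brighter of its probes had levels of 3.31 and 3.33 against 3.48 and 3.52, a difference of 0.18 (SE 0.06, limma adjusted p = 0.0489), only 0.02 above the median of all genes. The other probe read 1.86 and 1.99 against 1.88 and 2.02 and overlapped between groups, with a difference of 0.03 (SE 0.09, limma adjusted p over all probes 0.806). The call was lost without any 1 of the 4 arrays (adjusted p of up to 0.197), and the sign turned under 5 of the 8 scalings, so no direction can be given for Adar. Both probes carry the same accession, so its interferon-inducible and constitutive isoforms cannot be told apart here.

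**Figure D3:**
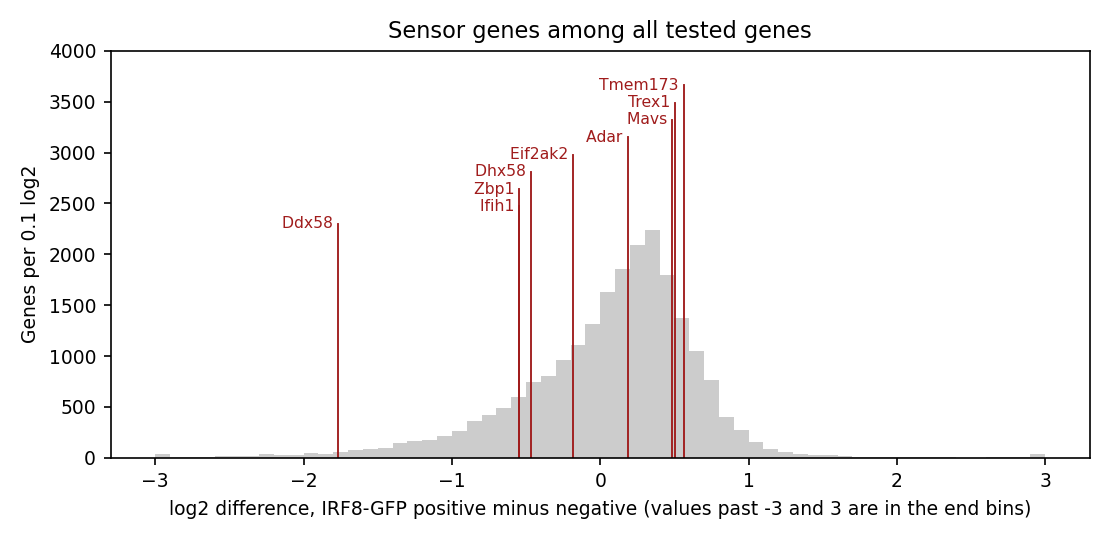
Histogram of the log2 difference, IRF8-GFP positive minus negative, over 22362 tested genes in steps of 0.1, with the 9 tested genes marked in red (line heights carry no value). Ddx58 sits at -1.77 in the low tail, where 1.41% of genes lie lower, while Mavs, Trex1 and Tmem173 lie on the upper shoulder, at 0.48, 0.51 and 0.56.

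The other genes of these pathways were taken from 6 lists. The counts of every list are to be read beside the shares over all tested genes, 38.5% called higher and 21.4% called lower. In the list of other interferon-stimulated genes, most went the way of the receptors. Among 32 tested there were 20 that fell, 2 that rose and 10 that passed neither way, with a median of -0.49 against 0.16 over all genes, and the median was below 0 under all 8 scalings. Oas2, an antiviral enzyme activated by double-stranded RNA, fell from 3.41 and 3.52 to 0.53 and 0.61 (7.42-fold, limma adjusted p = 0.000852). Samd9l, a negative regulator of growth in blood cells, fell 4.29-fold (limma adjusted p = 0.000919). Ifit1, which binds foreign RNA caps, was 5.98-fold lower (limma adjusted p = 0.0019), and Ifit3, with 1 of 2 positive arrays above background, read 5.64-fold lower. The 2 that rose were Bst2 (0.46) and Ifi35 (0.33), and both lost their call without negative replicate 1 or 2 (adjusted p of up to 0.116 and 0.0757).

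Genes of interferon receptor signalling were called in both directions. The 15 tested genes comprised 4 that rose, 5 that fell and 6 that passed neither way, with a median of -0.11. The share called was near the 59.9% of all tested genes called either way. With spike-in scaling, cyclic loess or quantile normalization 1 gene was called higher and 9 lower. Each of the 5 lower calls ended without negative replicate 1 or 2. Ifngr2 (0.52), Ifnar2 (0.36) and Ifngr1 (0.32), which encode receptor chains, were called higher, Ifngr1 with its sign turned under cyclic loess. Usp18, a feedback inhibitor at the type I receptor and itself induced by interferon, fell by 0.35 on the log2 scale (limma adjusted p = 0.0104). Among those not passing were Ifnar1 (0.00) and Irf9 (-0.16). Usp18, Ifnar2 and Ifngr1 each lost their call without negative replicate 1 or 2, with adjusted p of up to 0.0729 for Usp18, 0.0772 for Ifnar2 and 0.0868 for Ifngr1.

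Partners of the RIG-I-like receptors numbered 25 tested, with 14 rising, 3 falling and 8 passing neither way, and a median of 0.24 that turned to -0.06 under spike-in scaling. That scaling gave 3 genes higher and 8 lower, and cyclic loess 4 and 6. Without negative replicate 1 or 2 the calls were 7 higher and 1 lower. Irf7, the interferon regulatory factor that amplifies interferon production, fell most, from 0.58 and 0.52 to -0.67 and -0.75 (2.39-fold, limma adjusted p = 0.00151). The kinase gene Ikbke (-0.52) and the ubiquitin ligase gene Rnf125 (-0.42) were the other genes that fell, and each lost its call without negative replicate 1 or 2 (adjusted p of up to 0.0755 and 0.0552). Ppp1ca (0.69), whose phosphatase activates RIG-I and MDA5, Ywhae (0.63), a 14-3-3 chaperone of RIG-I, and the helicase gene Ddx3x (0.57) rose most. Ywhae lost its call in 3 of the alternative fits and Ddx3x in 2, while Ppp1ca kept it in all 18. The downstream kinase gene Tbk1 (0.09) and the ligase gene Trim25 (0.05) did not pass.

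Genes of DNA sensing and nucleic acid removal were called in both directions, with a split that depended on the scaling. Among 21 tested, 12 rose, 4 fell and 5 passed neither way, and the median of 0.35 stayed above 0 under all 8 scalings (lowest 0.048). The calls were 5 higher and 8 lower with spike-in scaling, 9 and 8 with the percentile over probes above background on all arrays, and 7 and 6 with cyclic loess. All 3 subunits of ribonuclease H2, which removes RNA from RNA-DNA hybrids, were higher, at 0.90 for Rnaseh2c, 0.79 for Rnaseh2b and 0.62 for Rnaseh2a. Banf1, a chromatin protein that keeps cGAS off self DNA, rose by 0.81, and Mb21d1, which encodes cGAS, by 0.44 (limma adjusted p = 0.00561). Smpdl3a, whose product degrades the cGAS messenger, fell by 0.73 on the log2 scale. The DNA sensor gene Aim2 (-0.35) did not pass.

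Among genes of double-stranded RNA binding, editing and stress kinases 10 of 16 tested rose, 2 fell and 4 passed neither way, with a median of 0.35 (lowest of the 8 scalings 0.035). Spike-in scaling gave 1 gene higher and 3 lower, cyclic loess 5 and 3, and the fit without negative replicate 1 gave 4 and 1. Eif2s1, which encodes the eIF2 alpha substrate of PKR, rose by 0.93 (limma adjusted p = 0.00185). Of the other eIF2 alpha kinases Eif2ak3 (0.52) and Eif2ak1 (0.46) rose, calls lost without negative replicate 1 (adjusted p of 0.0564 and 0.0552), and Eif2ak4 (0.07) did not pass. Atf4 (0.47), the transcription factor translated when eIF2 alpha is phosphorylated, was called higher, although its sign turned in the deposited matrix values and with quantile normalization. Adarb1, the second catalytically active editing enzyme, fell by 0.85 on the log2 scale (limma adjusted p = 0.00212).

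Of the signalling partners of Tlr3 and Zbp1, none was called lower by limma on all 4 arrays, nor was any lower at an unadjusted p of 0.05. Spike-in scaling gave 5 higher and 2 lower. Of the 15 tested, 11 rose and 4 passed neither way, with a median of 0.39. Mlkl, which executes necroptosis, went from 1.29 and 1.21 to 2.42 and 2.29 (2.15-fold, limma adjusted p = 0.00203). Unc93b1, which carries endosomal Toll-like receptors to their compartment, rose 2.08-fold (limma adjusted p = 0.00167), and the receptor chaperone genes Hsp90b1 and Cnpy3 rose by 0.87 and 0.61. The adaptor gene of Tlr3, Ticam1 (0.10), did not pass. Without negative replicate 1, 27 genes of the 6 lists were called higher and 22 lower, and without negative replicate 2, 32 and 21, where all 4 arrays gave 53 and 34.

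**Figure D4:**
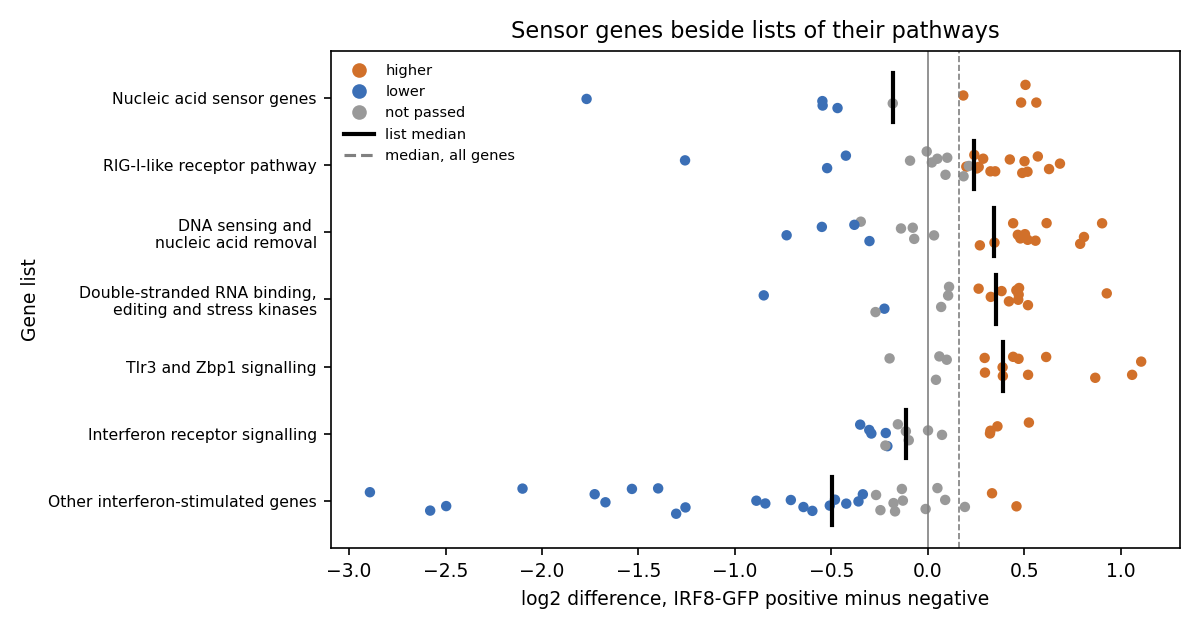
Log2 difference, IRF8-GFP positive minus negative, of each tested gene in the set of 10 and in 6 pathway lists (orange, called higher; blue, called lower; grey, not passed; vertical jitter has no meaning; black bar, list median; dashed line, median of all genes). The interferon-stimulated genes reach from -2.89 to 0.46 and lie mostly left of 0. The median of the interferon receptor signalling genes lies left of 0 as well (-0.11), and the medians of the other 4 pathway lists lie right of it (0.24 to 0.39).

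Markers of other cell types differed between the groups as well. Of 12 tested blood stem cell genes 10 fell and 2 passed neither way, and their summed level, in units of the 75th percentile, was 85.7 and 88.6 in the negative against 31.1 and 32.6 in the positive group. Of these 10 genes 3 (Mecom, Hoxb5 and Tek) were above background on no positive array and entered the test only through the group where they are high. Of 11 tested erythroid and megakaryocyte genes 10 fell and 1 passed neither way, with summed levels of 32.8 and 34.2 against 19.1 and 19.8. Monocyte and macrophage genes rose in 8 of 10 (15.1 and 14.9 against 118 and 122), conventional dendritic cell genes in 5 of 7 and B lineage genes in 6 of 8. Over all tested genes 38.5% were called higher and 21.4% lower. The 5 include Flt3, a gate gene whose sign held under 4 of the 8 scalings. Clec9a and Rab7b of the conventional dendritic cell genes and Vpreb3 of the B lineage genes likewise entered only through the positive group. Plasmacytoid dendritic cell genes went both ways, with 4 of 9 rising, 3 falling and 2 passing neither way. Of 5 tested T and NK cell genes 2 rose (Nkg7 and Klrb1c), 1 fell (Lck) and 2 passed neither way (Cd3e and Cd4). Other genes of these lists, among them Xcr1, Cadm1, Ebf1, Ms4a1, Cd3d, Cd3g and Cd8a, were above background on no array. Fewer cells of a type and less RNA per cell cannot be told apart in sorted bulk samples, and the part of these other changes in the values of the sensor genes was not tested.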

How the data were processed

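Per the file headers, the 4 arrays were scanned as single-colour (Cy3) arrays and read with Agilent Feature Extraction 10.7.3.1, which wrote background-subtracted and detrended intensity values, not normalized between arrays, with flags (0 or 1) for background and outliers. The deposited matrix holds intensity values that share the same sorted values in all 4 columns. Its median is 31.9 in each column, its scale is linear, and the sources used here do not state its centring.

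Outlier spots were left out and spots averaged per probe (12 probes dropped). The log2 signal minus the array's 75th percentile was used for probes well above background on both arrays of a group (30478 probes). Accessions were named through RefSeq of GRCm38.p6 (26756 probes with 1 symbol, 28913 with none), and each gene took its brightest probe. limma 3.58.1 (R 4.3.3) tested positive minus negative across 22362 genes, two-sided, with Benjamini-Hochberg adjustment and a threshold of 0.05, and was tested on simulated data. An exact permutation test of 2 against 2 cannot go below p = 0.333. "At least" folds set the brighter group against the lowest signal above background per array, or the dim probe's own if higher.

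Named genes are all 10 members, Irf8 and the gate genes, and up to 4 called genes of each list with the largest absolute difference. Others were picked with their values in view. The members and lists were chosen with earlier results of these data known. The alternatives were the replicate block, each array left out, normexp (offset 50, on median signals), other scalings, filters and probe rules, an intensity trend, and an adjusted p of 0.01. The number of arrays limits the precision.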

Additional observations from a re-analysis of the deposited data

How the results depend on the processing

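The calls of Ddx58, Ifih1 and Dhx58 and the count of 4 genes of the set called lower (3 to 5) held under the alternatives tried, and the cause of the changes that follow was not tested. Genes of the set called higher numbered 1 with quantile normalization, cyclic loess and the deposited matrix values, and 2 with spike-in scaling, against 4. Eif2ak2 passed at -0.22 with normexp, -0.31 with quantile normalization, -0.31 in the matrix values, -0.35 with cyclic loess, -0.48 with spike-in scaling, -0.42 with the percentile over probes above background on all arrays, and -0.18 with an intensity trend. Mavs lost its call with spike-in scaling (0.19). With quantile normalization, cyclic loess and the matrix values Tmem173 (0.14, 0.16 and 0.13) and Trex1 (0.15, 0.13 and 0.15) did too. Leaving out 1 array gave -0.63 to -0.46 for Zbp1, whose call ended at -0.52, and 0.16 to 0.20 for Adar. Adar turned to -0.11 with quantile normalization, -0.15 with cyclic loess, -0.11 with spike-in scaling, -0.050 with the percentile over probes above background on all arrays and -0.11 in the matrix values. It did not pass at 0.13 with normexp, 0.18 with centring on the median, with no filter, with the replicate block or at an adjusted p of 0.01, 0.11 with the mean of its probes, and 0.027 and 0.18 with each probe tested by itself. Atf4 turned to -0.015 with quantile normalization and -0.021 in the matrix values, and Ifngr1 to -0.034 with cyclic loess.

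All calls numbered 13390, 7861 at an adjusted p of 0.01, and 7612 to 12774 with 1 array left out. Pathway list genes called higher (53) numbered 28 with quantile normalization, 24 with cyclic loess, 15 with spike-in scaling, 28 with the percentile over probes above background on all arrays, 27 in the matrix values, 31 at 0.01 and 27 to 48 with 1 array left out. Those called lower (34) numbered 58 with spike-in scaling, 53 with that percentile, 22 at 0.01 and 21 to 32 with 1 array left out. The median of all genes was -0.13 with spike-in scaling, -0.07 with that percentile, 0.04 with quantile normalization and in the matrix values, 0.02 with cyclic loess and 0.34 with no filter. Calls were 8611 higher and 4779 lower, but 3344 and 7939 with spike-in scaling, 4382 and 7253 with that percentile, 6060 and 5466 with quantile normalization, 6036 and 5488 in the matrix values, and 5542 and 5744 with cyclic loess.

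The labels do not say that exp numbers pair arrays across groups, and same-numbered deviations correlated at 0.097 across genes. The replicate block gave 13946 calls, and of the set it ended that of Adar (0.18, adjusted p = 0.0570). Signal over background limits Tlr3 and the dim probes of Ifih1 and Zbp1.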

Other observations

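The transcripts of interferons themselves were dim or below background in both groups. Of 16 interferon genes named on the array, chosen after the files were seen, 8 were above background on no array, among them Ifnb1, Ifng, Ifne and Ifnk. The other 8, 7 of them type I interferon alpha genes whose near-identical copies a probe may not tell apart, were tested, and the highest processed signal of any interferon probe on any array was 134. One was called, Ifna12, with levels of -3.56 and -3.45 against -2.84 and -2.84 (log2 difference 0.67, limma adjusted p = 0.00312). The lone lambda interferon gene measured, Ifnl3, had a difference of 0.23 (limma adjusted p = 0.138).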
